A study of Mus musculus with 3 samples.

Results

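The genes encoding subunits of RNA polymerases I, II and III were followed in mouse embryonic stem cells in which translation was blocked. Members were all gene symbols beginning with Polr1, Polr2 or Polr3 and a letter, which gave 28 genes of the 32285 in the count tables. Of these, 3 encode subunits found only in RNA polymerase I, 8 only in RNA polymerase II and 10 only in RNA polymerase III, while 2 are shared by I and III and 5 by all 3 enzymes. The symbol rule misses 4 subunit genes that the tables list under other names (Twistnb, Cd3eap, Znrd1 and Crcp), which are described separately.

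E14 cells, an established mouse line of 129/Ola background, were grown with serum and leukemia inhibitory factor on gelatin. From 24 h after seeding they received 250 µg/mL cycloheximide, a blocker of translation elongation, in 0.007% ethanol for 3 h or for 6 h, and the control received ethanol alone for 6 h. All groups were then frozen in medium with dimethyl sulfoxide, thawed and sequenced with the 10x Genomics method that counts the 3′ ends of polyadenylated transcripts by unique molecular identifiers (UMIs). Each group is 1 library without a replicate, so no test between conditions was possible, and culture, library and treatment cannot be told apart.

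RNA polymerase I transcribes the large ribosomal RNA precursor, RNA polymerase II transcribes messenger RNAs, and RNA polymerase III transcribes transfer RNAs, 5S ribosomal RNA and other short RNAs. Each enzyme has a catalytic core of 2 large subunits, an assembly platform, small subunits common to all 3 enzymes, and a stalk that contacts emerging RNA and initiation factors. RNA polymerase III also carries a detachable trimer for initiation, of which 1 subunit exists as paralogs: Polr3g, known for its high level in pluripotent cells, and Polr3gl, the form known from most differentiated tissues.

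Barcodes with at least 15000 UMIs and 1 to 20% mitochondrial UMIs were kept, leaving 2187 cells in the ethanol library, 1739 in the 3 h library and 2554 in the 6 h library, with median depths of 43160, 51726 and 46200 UMIs per cell and 1 to 3 cell barcodes shared between any 2 libraries. The lower mitochondrial limit of 1% left out 62 control barcodes against 1 and 8 after treatment. The upper limit of 20% left out 0 in each library. All 12 embryonic stem cell markers were detected in each library at 36.8 CPM or more (CPM, UMIs of a gene per 1000000 UMIs of the cells). Markers of other cell types were low, with summed levels of 1.99 to 2.93 CPM for 7 fibroblast or feeder genes (Col3a1 and Lum at 0 in every library), 8.14 to 12.5 CPM for 6 primitive endoderm genes, 15.9 to 21.3 CPM for 3 neural genes, 4.05 to 6.81 CPM for 4 mesoderm genes and 0.00713 to 0.592 CPM for 5 genes of the 2-cell-like state. The median mitochondrial share of a cell's UMIs was 4.58%, 3.52% and 2.89% in control, 3 h and 6 h. The part of these differences in the results was not tested.

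The promoter stretches of 3 RNA polymerase III genes are shown first, because the levels of Polr3g and Polr3e were among the lowest relative to control at 6 h while that of the paralog Polr3gl stayed nearer to the median gene. Promoter sequences were those of RefSeq on GRCm38.p6, which matched 22 of the 28 members by symbol. The stretches end where the first annotated exon begins, and run 5′ to 3′ on the strand of the gene. Capitals mark every match, on either strand, to 6 motifs. These were the CCAAT box, the E box written CACGTG, the GC box written GGGCGG, the ETS-type motif written CCGGAAG, the TATA box written TATAAA and the B box of transfer RNA genes, the last of which was added after the Polr3e sequence had been seen. The stretches lie at chr13:81711014-81711263 on the minus strand for Polr3g, chr3:96594182-96594431 on the minus strand for Polr3gl and chr7:120917528-120917743 on the plus strand for Polr3e.
Polr3g: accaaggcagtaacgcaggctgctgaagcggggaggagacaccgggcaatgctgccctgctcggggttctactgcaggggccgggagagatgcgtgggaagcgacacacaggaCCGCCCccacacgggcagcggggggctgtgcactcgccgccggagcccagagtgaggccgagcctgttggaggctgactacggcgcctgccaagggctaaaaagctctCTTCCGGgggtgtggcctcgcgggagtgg
Polr3gl: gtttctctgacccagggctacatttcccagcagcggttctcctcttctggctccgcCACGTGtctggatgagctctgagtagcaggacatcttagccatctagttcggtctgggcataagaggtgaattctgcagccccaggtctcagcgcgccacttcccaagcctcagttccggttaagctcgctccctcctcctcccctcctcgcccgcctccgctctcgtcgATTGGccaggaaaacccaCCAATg
Polr3e: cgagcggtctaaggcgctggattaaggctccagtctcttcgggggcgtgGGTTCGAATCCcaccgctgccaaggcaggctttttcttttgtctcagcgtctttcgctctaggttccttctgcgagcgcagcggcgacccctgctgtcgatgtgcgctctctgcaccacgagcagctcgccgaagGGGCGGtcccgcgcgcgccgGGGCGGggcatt

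The paralogs shared none of these motifs. The Polr3g stretch held 1 GGGCGG and 1 CCGGAAG match, both as reverse complements, and the Polr3gl stretch held 2 CCAAT matches and 1 CACGTG match. Polr3e held 2 GGGCGG matches and, farther upstream, the letters of a B box, the internal promoter element that RNA polymerase III itself uses at transfer RNA genes. Among 32851 RefSeq promoter entries of 250 bases, 11 entries or 0.0335% held the B box letters, as did 1 of the 22 members, Polr3e. As the motif was added after that sequence had been seen, these counts are no test. The Polr3e stretch shown has 216 bases, against 250 for the paralogs. GGGCGG occurred in 14 of the 22 members and in 32.7% of all entries, CCAAT in 7 members and 33.8%, CCGGAAG in 5 members and 6.91%, TATAAA in 2 members and 12.4%, and CACGTG in 2 members and 6.02%. These matches describe letters in a window and were not tied to the measured levels by any test.

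Summed over all 28 genes, the subunit transcripts made up 3366 CPM without drug, 3546 CPM after 3 h and 3817 CPM after 6 h. The share of genes specific to RNA polymerase II was higher in both treated libraries. The shares of RNA polymerases I and III depended on which genes were counted. That of RNA polymerase II includes Polr2d and Polr2g, whose CPM was lowest in the control and highest at 6 h. Its share without such genes was not computed. Genes specific to RNA polymerase II gave 36.8% of the subunit UMIs without drug (36.7 to 37.0, exact binomial at 95%), 39.6% after 3 h (39.5 to 39.8) and 41.2% after 6 h (41.1 to 41.4). Genes specific to RNA polymerase III gave 11.2% (11.1 to 11.3), 10.5% (10.4 to 10.6) and 9.47% (9.39 to 9.55), and those of RNA polymerase I gave 3.78% (3.72 to 3.85), 3.67% (3.61 to 3.73) and 3.44% (3.39 to 3.49). The shared subunits gave 48.2%, 46.2% and 45.9%. When the 4 subunit genes under other symbols were added, a choice made after the data had been seen, RNA polymerase I gave 14.5%, 15.9% and 15.0% of the UMIs of 32 genes, higher after treatment. RNA polymerase II then gave 32.5%, 34.2% and 35.7%, and RNA polymerase III gave 10.4%, 10.1% and 9.66%. Without Polr3g, the other 9 genes specific to RNA polymerase III gave 8.84%, 9.10% and 8.38% of the remaining 27, so that their share was above the control at 3 h and below it at 6 h. Shares of this kind are the same under any scaling of the libraries. All intervals cover counting error only.

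Scaling mattered for single genes. Over 7608 genes, those whose mean over the libraries reached 10 CPM, the median log2 ratio to control was 0.11 at 3 h and 0.17 at 6 h by CPM, -0.063 and -0.12 with TMM factors, and 0.38 and 0.27 by UMIs per cell. Changes are therefore given as centred log2 ratios, that is the log2 ratio of CPM minus this median. All 28 members passed the floor, the least abundant being Polr3gl with 1222 to 1598 UMIs per library. The median centred ratio of the members was 0.015 at 3 h and 0.032 at 6 h, and 14 members lay above the median gene at 3 h and 15 at 6 h. The subunit genes as a whole thus kept pace with the median gene, while single members went from -1.08 to 0.76 at 6 h.

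**Figure D1:**
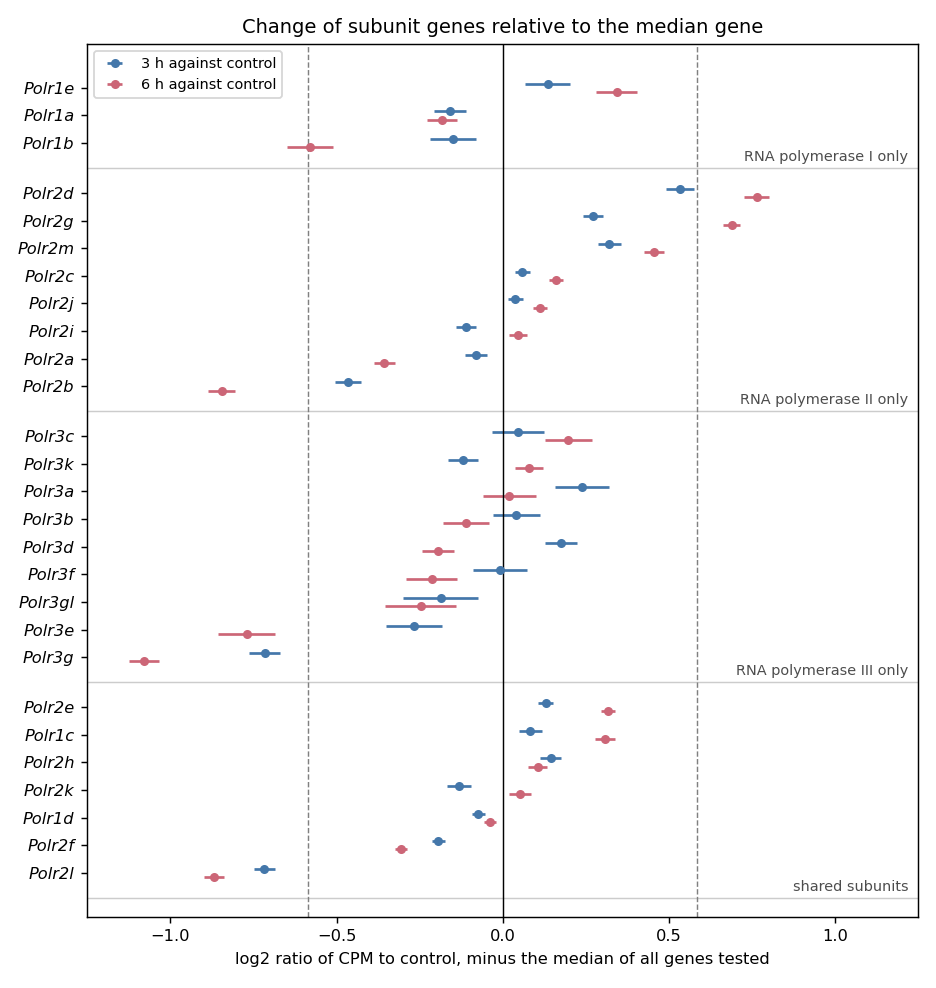
Centred log2 ratio of CPM (x axis, log2 units; 0 is the median of all 7608 genes tested) of 27 subunit genes at 3 h (blue) and 6 h (red) against control, with 95% exact counting intervals and dashed lines at 1.5-fold. At 6 h Polr2d and Polr2g lie beyond the right line, and Polr2b, Polr3e, Polr3g and Polr2l beyond the left line.

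Past 1.5-fold relative to the median gene, 2 members were higher and 4 lower at 6 h, or 7.14% and 14.3% of the 28, beside 15.3% and 12.3% of all genes tested. At 3 h, 0 members were higher and 2 lower (7.14%), beside 10.1% and 3.72% of all genes. Between 3 h and 6 h no member passed 1.5-fold in either direction, beside 1.38% of all genes higher and 3.08% lower. By UMIs per cell without centring, 5 members were higher and 2 lower at 6 h, beside 27.8% and 5.49% of all genes. At 3 h, 4 were higher and 0 lower on that scale, beside 30.1% and 0.775%. With TMM factors without centring, 1 was higher and 5 were lower at 6 h, beside 11.6% and 16.9%.

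The median of the 8 genes specific to RNA polymerase II was 0.14 at 6 h and 0.048 at 3 h. That of the 10 genes specific to RNA polymerase III was -0.15 at 6 h and 0.016 at 3 h. The 3 genes specific to RNA polymerase I had medians of -0.18 and -0.15, and the 7 shared genes had 0.050 and -0.074, in the same order. With Twistnb, Cd3eap and Znrd1 added, the median over 6 genes of RNA polymerase I was 0.017 at 6 h and 0.096 at 3 h, so its sign rested on the symbol rule. The spread within each enzyme was wider than the distance between these medians, for example 1.61 from the lowest to the highest RNA polymerase II gene at 6 h.

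**Figure D2:**
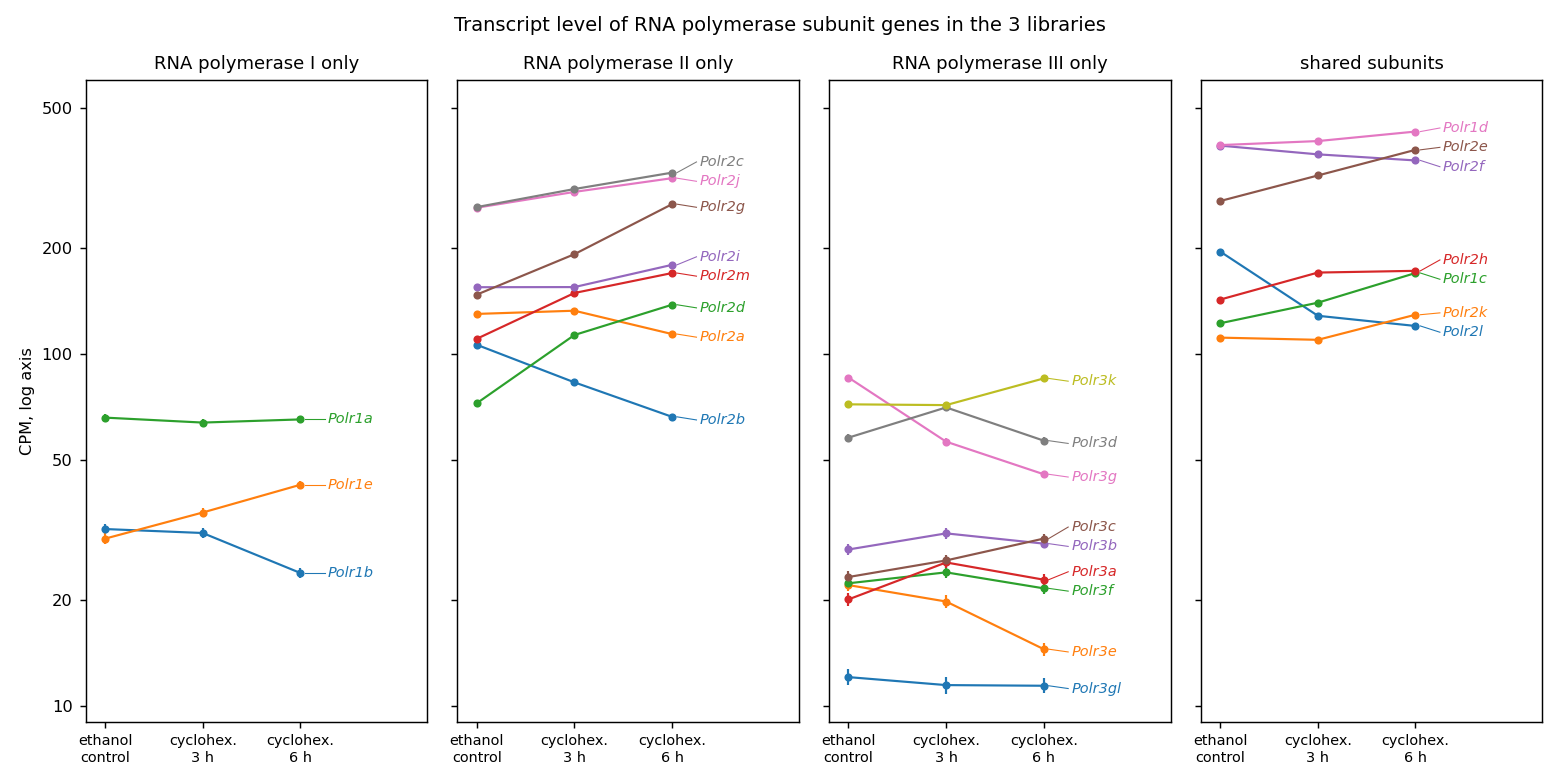
Level of 27 subunit genes in CPM (y axis, log scale) in the control, 3 h and 6 h libraries, 1 panel per enzyme and 1 for shared subunits, with 95% exact Poisson intervals that are often smaller than the points. Lines join the 3 libraries of a gene; those of Polr3g, Polr2l and Polr2b go down and those of Polr2d and Polr2g go up.

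Relative to the median gene, 5 of the 6 catalytic subunit genes were lower at 6 h, though by UMIs per cell without centring Polr1a, Polr3a and Polr3b were above the control. Polr2a (ENSMUSG00000005198), the largest subunit of RNA polymerase II with the repeated C-terminal tail that is phosphorylated during transcription, had 129.7 CPM without drug, 132 CPM after 3 h and 114 CPM after 6 h, a centred ratio of -0.08 at 3 h and -0.36 at 6 h. Polr2b (ENSMUSG00000029250, on chromosome 5 at 77310147 to 77349324), the other catalytic subunit, had 106 CPM (104 to 108), 82.9 CPM (81.2 to 84.6) and 66.1 CPM (64.8 to 67.5). Its level was highest in the control and lowest at 6 h, and the centred ratio stood at -0.47 after 3 h (-0.51 to -0.43) and -0.85 after 6 h (-0.89 to -0.81). The annotated end of Polr2b overlaps Igfbp7 on the other strand, and whether counting used strand is not given in the sources used here.

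Among the large subunits of RNA polymerase I, Polr1a had 65.8, 63.7 and 65.0 CPM in control, 3 h and 6 h, and Polr1b had 31.7, 30.9 and 23.8 CPM. The centred ratio of Polr1b was -0.15 at 3 h and -0.58 at 6 h, just inside the 1.5-fold line, which it crossed at -0.72 when no floor on low genes was used. For RNA polymerase III, Polr3a had 20.04, 25.5 and 22.8 CPM and Polr3b had 27.8, 30.9 and 28.9 CPM. Their centred ratios at 6 h were 0.020 and -0.11. From 3 h to 6 h all 6 catalytic genes were lower relative to the median gene, from -0.014 for Polr1a to -0.42 for Polr1b. Without centring, Polr1a was at 0.030.

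Both stalk subunits of RNA polymerase II were higher. Polr2d (ENSMUSG00000024258, on chromosome 18 at 31789159 to 31796701), which encodes RPB4, had 72.3 CPM without drug (70.7 to 73.9), 113 CPM after 3 h (111 to 115) and 138 CPM after 6 h (136 to 139.6). Polr2g (ENSMUSG00000071662, on chromosome 19 at 8793127 to 8798577), which encodes its partner RPB7, had 147 CPM (145 to 149), 192 CPM (189 to 194) and 266 CPM (263 to 269). For both genes the control was lowest and the 6 h library highest, without overlap of counting intervals. The centred ratios of Polr2d were 0.53 at 3 h and 0.76 at 6 h, and those of Polr2g 0.27 and 0.69. The value of Polr2g at 6 h was 0.55, inside 1.5-fold, when no floor on low genes was used. With TMM factors without centring it was 0.57, also inside 1.5-fold.

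Stalk genes of the other enzymes were then read side by side, a grouping chosen after these values had been seen. Crcp, the RPB4 counterpart of RNA polymerase III, had 21.4 CPM without drug, 41.3 CPM after 3 h and 64.5 CPM after 6 h, with centred ratios of 0.84 and 1.42. Twistnb, the RPB7 counterpart of RNA polymerase I, had 117, 166 and 154 CPM, with 0.39 and 0.23. The 4 stalk genes described here lay above the median gene at both times. They also lay above the control with TMM factors and by UMIs per cell. At 6 h 3 of them were higher past 1.5-fold, beside 15.3% of all genes tested. Crcp was also higher at 6 h than at 3 h past 1.5-fold (0.60), beside 1.38% of all genes.

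The remaining genes specific to RNA polymerase II stayed within 1.5-fold of the median gene. Polr2m, which encodes a regulator that associates with part of the enzyme and modulates the need for Mediator, had 110.2, 149 and 169 CPM and a centred ratio of 0.45 at 6 h, or 0.62 and past 1.5-fold without centring. Polr2c and Polr2j, the RPB3 and RPB11 platform subunits, lay near the median gene. Polr2c had 261, 294 and 327 CPM and Polr2j 260, 288 and 315 CPM, with centred ratios of 0.16 and 0.11 at 6 h. Their annotated ends overlap Dok4 and Lrwd1 on the other strand, a limit as for Polr2b. Polr2i, whose product supports RNA cleavage and proofreading, had 154, 155 and 179 CPM.

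Of the shared subunits, Polr2l stood apart. Polr2l (ENSMUSG00000038489, on chromosome 7 at 141471860 to 141475132), a small zinc-binding subunit of the common set, had 195 CPM without drug (192 to 197.6), 128 CPM after 3 h (126 to 130.3) and 119.8 CPM after 6 h (118 to 122). Its control level was the highest of the 3 libraries, and most of the difference was present by 3 h, with centred ratios of -0.72 at 3 h and -0.87 at 6 h. The other 4 genes common to all enzymes lay between -0.31 and 0.32 at 6 h. Among them Polr2e had 271, 321 and 379 CPM, Polr2f had 390, 368 and 354 CPM, Polr2h had 142, 170.0 and 172 CPM, and Polr2k had 111, 109 and 129 CPM. The order was thus opposite for Polr2e and Polr2f, which serve the same complexes.

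Polr1c and Polr1d form the platform shared by RNA polymerases I and III. Polr1c had 122, 139.6 and 169 CPM in control, 3 h and 6 h, a centred ratio of 0.31 at 6 h. Polr1d had 391, 402 and 427 CPM, close to the median gene with -0.04. The RNA polymerase I gene Polr1e, which encodes a subunit resembling part of the factor TFIIF, had 29.8, 35.4 and 42.4 CPM and a centred ratio of 0.34 at 6 h. Its partner Cd3eap, under its own symbol, had 72.9, 84.5 and 67.6 CPM with -0.27 at 6 h, so at that time the 2 partners lay on opposite sides of the median gene. At 3 h both lay above it, with 0.14 for Polr1e and 0.10 for Cd3eap. By UMIs per cell without centring Cd3eap was at -0.00017 at 6 h. The annotated ends of Polr1e and Cd3eap overlap Fbxo10 and Ercc1 on the other strand, so the limit given for Polr2b holds here too. Znrd1, the cleavage subunit of RNA polymerase I, had 236, 272 and 308 CPM with a centred ratio of 0.22 at 6 h.

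The initiation trimer of RNA polymerase III held the lowest ratio of all members. Polr3g (ENSMUSG00000035834, on chromosome 13 at 81673843 to 81711013) had 85.5 CPM without drug (83.8 to 87.2), 56.2 CPM after 3 h (54.8 to 57.7) and 45.4 CPM after 6 h (44.3 to 46.6). Its centred ratio stood at -0.72 after 3 h (-0.76 to -0.67) and -1.08 after 6 h (-1.12 to -1.03), and over the 13 alternatives it ranged from -1.22 to -0.91 at 6 h. In UMIs per cell, with no scaling to totals, it went from 4.36 in the control to 3.45 and 2.50. Polr3gl (ENSMUSG00000028104, on chromosome 3 at 96577872 to 96594181) had 12.1 CPM (11.4 to 12.7), 11.4 CPM (10.8 to 12.1) and 11.4 CPM (10.8 to 11.96), with centred ratios of -0.19 and -0.25.

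Polr3g therefore made up less of the UMIs of the paralogs after treatment. Its share of the sum of Polr3g and Polr3gl was 87.6% without drug (87.0 to 88.3), 83.1% after 3 h (82.2 to 84.0) and 79.95% after 6 h (79.1 to 80.8). It remained the more frequent transcript in every library. The other trimer genes, Polr3c with 23.2, 25.9 and 29.8 CPM and Polr3f with 22.3, 23.9 and 21.5 CPM, had centred ratios of 0.20 and -0.21 at 6 h. The last 500 bases of Polr3gl, Polr2l and Polr1b transcripts each include a stretch of at least 90 bases that is at least 95% identical to transcripts of other genes in the tables, and the annotated end of Polr3gl overlaps Gm16253 on the other strand. How such reads were assigned is not given in the sources used here, so these levels are uncertain in that respect.

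Polr3d and Polr3e encode a dimer of RNA polymerase III that acts in initiation and termination. Polr3e (ENSMUSG00000030880, on chromosome 7 at 120917744 to 120947432), the gene with the B box letters upstream, had 22.0 CPM without drug (21.1 to 22.9), 19.8 CPM after 3 h (18.9 to 20.6) and 14.5 CPM after 6 h (13.8 to 15.1). The control was highest and the 6 h library lowest, and the centred ratio was -0.27 at 3 h and -0.77 at 6 h. By UMIs per cell without centring the 3 h ratio of Polr3e was 0.11, above the control. Polr3d had 57.7, 70.3 and 56.6 CPM, higher at 3 h than in either other library, with centred ratios of 0.17 and -0.19. Polr3k, the cleavage subunit of RNA polymerase III, had 71.8, 71.4 and 85.0 CPM.

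**Figure D3:**
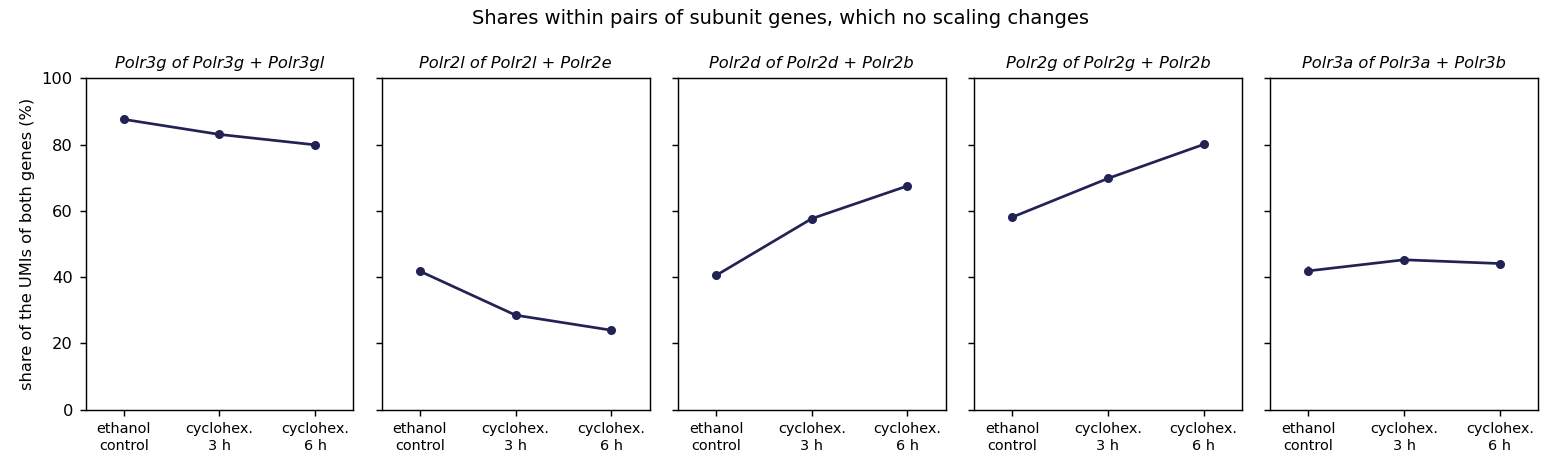
Share of the UMIs of 2 genes that belongs to the first named gene (y axis, percent) in the control, 3 h and 6 h libraries, with 95% exact binomial intervals that are mostly smaller than the points. Polr3g and Polr2l go down within their pairs, Polr2d and Polr2g go up against Polr2b, and the share of Polr3a stays between 41.9% and 45.3%.

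Shares within pairs of genes, chosen after the levels had been seen, do not depend on any scaling. Polr2d gave 40.5% of the sum of Polr2d and Polr2b without drug (39.9 to 41.2), 57.7% after 3 h (57.0 to 58.4) and 67.6% after 6 h (67.0 to 68.1). Polr2g gave 58.1%, 69.8% and 80.1% of the sum with Polr2b. Against its partner Polr2g, Polr2d gave 32.9%, 37.1% and 34.1%. Polr2l gave 41.8% of the sum with Polr2e without drug (41.4 to 42.2), 28.5% after 3 h (28.1 to 28.9) and 24.0% after 6 h (23.7 to 24.3). The catalytic pair Polr3a and Polr3b was nearly level, with Polr3a at 41.9%, 45.3% and 44.1%.

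Across cells, the same members were compared after each cell had been thinned to 15000 UMIs, which left out no cell. A Polr3g UMI was found in 71.6% of cells without drug (69.6 to 73.4, exact binomial), 54.4% after 3 h (52.0 to 56.8) and 49.1% after 6 h (47.2 to 51.1). Without thinning these shares were 95.3%, 91.1% and 83.6%. Randomly drawn UMIs of the same mean would have given 71.9%, 54.9% and 49.0%, so the thinned shares lay near those of an even spread over cells. For Polr2d the thinned shares were 65.6%, 81.5% and 86.0%, and for Polr2l 94.0%, 83.6% and 82.3%. Without thinning they were 94.0%, 98.2% and 98.6% for Polr2d, and 99.6%, 98.2% and 98.4% for Polr2l.

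**Figure D4:**
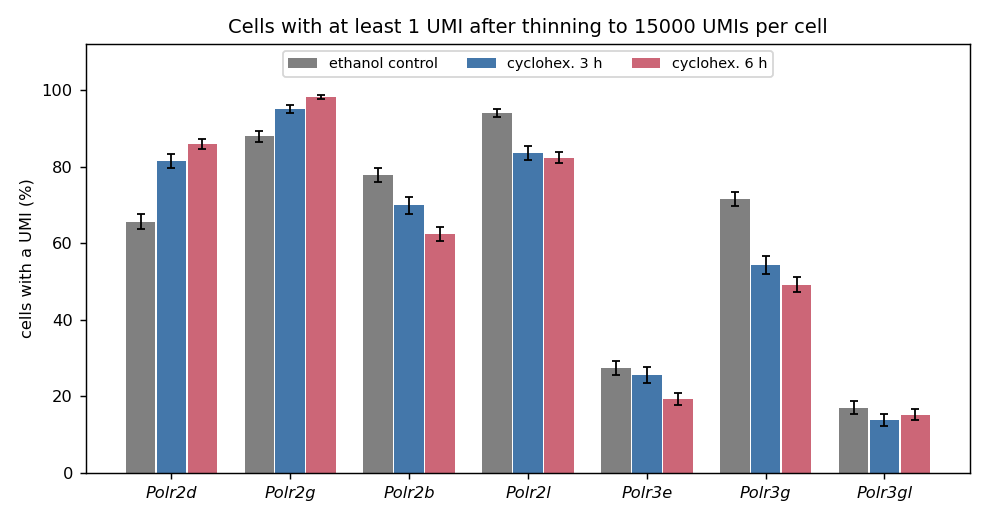
Percent of cells with at least 1 UMI (y axis, from 0) after thinning to 15000 UMIs per cell, for the 6 members past 1.5-fold and Polr3gl, in control (grey), 3 h (blue) and 6 h (red), with 95% exact binomial intervals over cells of 1 library. Polr3g goes from 71.6% to 49.1% and Polr2d from 65.6% to 86.0%.

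Free RNA, read from barcodes with 10 to 100 UMIs, went in the same direction for each gene past 1.5-fold. It gave 53.4, 35.7 and 31.1 CPM for Polr3g, 53.6, 69.6 and 91.6 CPM for Polr2d and 135, 83.2 and 85.4 CPM for Polr2l. The values were 143, 176 and 284 CPM for Polr2g, 103, 79.9 and 59.4 CPM for Polr2b and 21.4, 19.1 and 9.18 CPM for Polr3e. A cell holding a UMI of a gene need not express that gene. No cell type that should lack the genes was present for comparison, and the part of free RNA in the shares was not tested. Spread between cells beyond counting noise was measured as the excess squared coefficient of variation, for the 27 members with at least 0.2 UMIs per thinned cell in each library. Its median over the members was 0.032, 0.031 and 0.034 in control, 3 h and 6 h, beside 0.074, 0.075 and 0.079 over the 6046 genes measured alike. In the control 20 of the 27 members lay below the median of all genes, at 3 h 21 and at 6 h 23.

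Cycloheximide is known to stabilise transcripts that are substrates of nonsense-mediated decay (NMD), so the annotation of the members was read for such isoforms. GENCODE M21 lists an NMD transcript for 9 members, which had a median centred ratio of 0.020 at 6 h and a range of -0.31 to 0.45. The 19 members without one had a median of 0.045 and a range of -1.08 to 0.76. The 6 members past 1.5-fold at 6 h were among these 19 of 28. Shares of all genes past 1.5-fold with and without such a transcript were not counted, and a relation was not tested. Of the related genes described below as higher past 1.5-fold at 6 h, Brf2, Taf1d, Gtf3c5 and Gtf2h1 have an annotated NMD transcript. Taf1a, Ttf1, Ercc2, Snapc2 and Tfb1m have none. The counts are per gene, so isoforms were not measured.

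Genes that act with the polymerases, and 4 genes of mitochondrial transcription, were read from lists chosen with earlier results of these data known. Of 84 such genes above the floor, 8 were higher (9.52%) and 2 lower (2.38%) past 1.5-fold at 3 h, beside 10.1% and 3.72% of all genes. At 6 h, 9 were higher (10.7%) and 6 lower (7.14%), beside 15.3% and 12.3%. These shares were at or below those of all genes. The 4 mitochondrial genes, described under other observations, account for 1 of the lower genes at 3 h. At 6 h they account for 1 higher and 1 lower gene. Among 8 RNA polymerase I factors, which had a median of 0.33, 3 were higher at 6 h. Taf1a, a subunit of the promoter selectivity factor SL1, had 6.49, 22.9 and 27.8 CPM in control, 3 h and 6 h, a centred ratio of 1.93. It was below 10 CPM in the control and passed the floor on the mean only through the treated libraries. Taf1d of the same factor had 1.30 and Ttf1, the termination factor, 1.03. The 2 lower genes, named after their values were seen, were Ubtf, the upstream binding factor, with -0.78, and Tcof1, known as treacle, with -0.71.

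**Figure D5:**
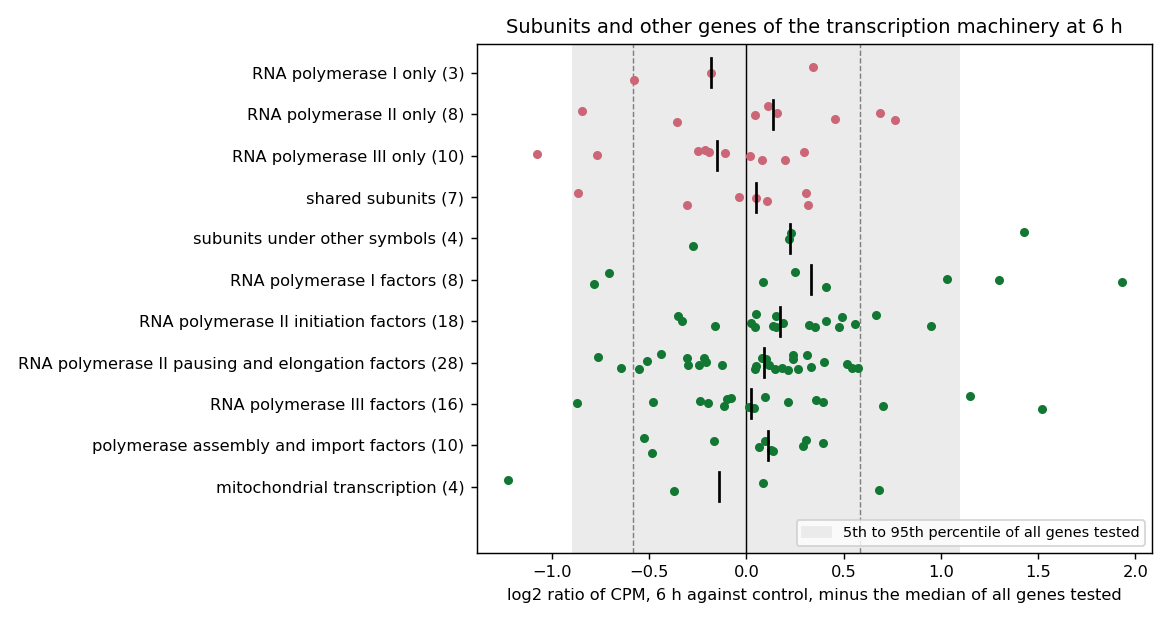
Centred log2 ratio at 6 h against control (x axis, log2 units) of each gene in the polymerase subunit groups (red) and in lists of related genes (green), with the number of genes in parentheses, black bars at list medians, dashed lines at 1.5-fold and a grey band from the 5th to the 95th percentile of all genes tested. The points of RNA polymerase I and III factors reach 1.93 and 1.52, while the 10 assembly and import factors stay within 1.5-fold.

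The genes in the next sentences that lie within 2-fold were also named after their values were seen. RNA polymerase II initiation factors had a median of 0.17 at 6 h over 18 genes, with 2 higher, Ercc2 (0.95) and Gtf2h1 (0.67), both subunits of TFIIH. Ercc2 had 7.01, 12.3 and 15.2 CPM in control, 3 h and 6 h, so it passed the floor only through the treated libraries. Of 28 pausing and elongation factors, with a median of 0.092, none was higher and 2 were lower, Hexim1, an inhibitor of the elongation kinase P-TEFb, with -0.76 and Cdk13, a kinase of the C-terminal tail, with -0.65. Of 17 RNA polymerase III factors 16 passed the floor, all but Brf1, with a median of 0.026, 3 higher and 1 lower. Brf2, an initiation factor for promoters outside the gene, had 12.4, 31.7 and 39.9 CPM, a centred ratio of 1.52. Gtf3c5 of TFIIIC, with 8.61, 16.5 and 21.5 CPM, also passed the floor only through the treated libraries and had a centred ratio of 1.15. Snapc2 had 0.70. Brf1, left out by the floor, had 8.53, 8.60 and 9.24 CPM. Maf1, the repressor of RNA polymerase III, had 39.9, 29.5 and 24.4 CPM, a centred ratio of -0.87. The 10 assembly and import factors had a median of 0.11 and none past 1.5-fold in either direction.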

How the data were processed

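Single-cell RNA sequencing of 3 libraries (ethanol control, cycloheximide 3 h, cycloheximide 6 h) was analysed. The matrices deposited by the authors hold whole UMI counts, not normalised, and their headers name Cell Ranger 4. The submitters' processing notes name Cell Ranger 4.0.0 and mm10; the gene annotation is not given in the sources used here. No cells had been called, since each matrix holds 6794880 barcodes. Libraries held 115188502 to 150987519 UMIs, of which the cells kept held 87.3% to 92.9%.

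Counts were summed over the cells of each library and scaled to CPM, with a prior of 0.5 counts for log2 ratios and a floor of a mean of 10 CPM. The call rule was 1.5-fold from the median gene. Doublets were not removed; leaving out cells above 2 times the median depth was an alternative. Intervals are exact (Poisson, conditional binomial, Clopper-Pearson) at 95%. The ratio procedure was tested on simulated data. Named genes were the members, plus related genes past 2-fold; others are marked where named. 1 member is counted in the totals and is not reported here by itself. The members and lists were chosen with earlier results of these data known. Gene positions are those of GENCODE M21 on GRCm38, matched by identifier. Python 3.11.15, numpy 2.4.6, scipy 1.17.1, and edgeR 4.0.16 in R 4.3.3 (TMM factors only) were used.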

Additional observations from a re-analysis of the deposited data

Results flagged for a closer look

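Of the 28 members, 4 lay on opposite sides of the median gene at 3 h and 6 h, and neither counting interval included 0. The share of all genes tested that did the same was not counted, so the 4 are not set apart from other genes. No test of this difference was possible with 1 library per time, and both ratios share the control. Polr3d had a centred log2 ratio of 0.17 and then -0.19, a difference of -0.37, and these signs held under all 13 alternatives, though by UMIs per cell without centring the 6 h ratio was 0.080. Polr3k had -0.12 and 0.079, a difference of 0.20, Polr2k had -0.13 and 0.050, a difference of 0.18, and Polr2i had -0.11 and 0.045, a difference of 0.16. With no floor on low genes the 6 h values of these 3 genes turned to -0.058, -0.087 and -0.092. For Polr2i the sign also turned without centring at 3 h (0.0012) and without mitochondrial limits at 6 h (-0.032). By UMIs per cell without centring, Polr3k had 0.26 and 0.35, Polr2k 0.25 and 0.32, and Polr2i 0.27 and 0.32. With TMM factors without centring, Polr3k had -0.18 and -0.042, Polr2k -0.20 and -0.070, and Polr2i -0.17 and -0.075. On either scale the sign change was thus absent for these 3 genes.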

How the results depend on the processing

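Over 13 alternatives the 2 lower members at 3 h (Polr2l and Polr3g) and, at 6 h, Polr2b, Polr2l, Polr3g and Polr2d stayed past 1.5-fold. Polr3e did so in the 12 that tested it, since a floor of 50 CPM leaves it out. By UMIs per cell without centring, which is not among the 13, Polr2b (-0.57) and Polr3e (-0.50) were inside 1.5-fold at 6 h. On that scale Polr2l (-0.34) and Polr3g (-0.33) were inside it at 3 h. TMM factors, UMIs per cell, a prior of 5 counts, 10000 or 20000 UMIs as the minimum, removal of the deepest cells and a mitochondrial limit of 10% moved none of the 84 centred member ratios beyond its counting interval, the first 2 because centring removes a common shift. Group medians moved most with the centring and the floor, which set the reference median. A floor of 50 CPM also changed which members were counted. It kept only Polr1a of the genes specific to RNA polymerase I, and only Polr3d, Polr3g and Polr3k of those specific to III. Without centring the medians at 3 h were 0.13 for all members, -0.037 for RNA polymerase I, 0.16 for II, 0.13 for III and 0.038 for shared genes, with 1 member higher past 1.5-fold. At 6 h they were 0.20, -0.017, 0.30, 0.013 and 0.22, with 3 members higher since Polr2m passed, and between 3 h and 6 h 0.060 for all, 0.17 for II and 0.090 for shared genes. With a floor of 50 CPM, which left 19 members, the medians at 3 h were 0.095 for II, -0.072 for III and -0.027 for shared genes, at 6 h 0.11 for all, -0.12 for I, 0.20 for II and 0.11 for shared genes, and between the times 0.093 for all and -0.34 for III. With no floor they were -0.0024 for II and -0.12 for shared genes at 3 h. At 6 h they were -0.10 for all, -0.32 for I, -0.00079 for II, -0.29 for III and -0.087 for shared genes, with 1 member higher, and between the times -0.047 for all, -0.077 for I, 0.065 for II and -0.017 for shared genes. Without mitochondrial limits, RNA polymerase II had 0.0064 at 3 h and 0.091 at 6 h, and shared genes -0.12 and 0.0081. In cells of 30000 to 60000 UMIs, shared genes had -0.032 at 3 h and RNA polymerase I had -0.23 at 6 h, and free RNA subtraction gave 0.011 for shared genes at 6 h. The cause of these last shifts was not tested. Signs of medians this near 0 are thus set by the reference and, with a floor of 50 CPM, also by which members it keeps. Added after the data had been seen, counts without centring were 4 higher and 0 lower at 3 h, 5 higher and 2 lower at 6 h and 1 lower between the times by UMIs per cell, and 1 higher at 6 h with TMM factors. With the 4 subunit genes under other symbols, also added, the shares of RNA polymerases I, II, III and shared genes were 14.5%, 32.5%, 10.4% and 42.6% in the control, 15.9%, 34.2%, 10.1% and 39.9% at 3 h, and 15.0%, 35.7%, 9.66% and 39.7% at 6 h. The median of RNA polymerase I was then 0.096 at 3 h, 0.017 at 6 h and -0.083 between the times. Without Polr3g, RNA polymerase III gave 8.84%, 9.10% and 8.38%. No paired analysis was possible because each group has 1 library. Depth limits Polr3gl most, with 1222 to 1598 UMIs.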

Other observations

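Mitochondria carry their own single-subunit RNA polymerase, Polrmt, which is unrelated to the 3 nuclear enzymes. Of 4 genes of mitochondrial transcription, Tfb2m, the initiation factor of that polymerase, had 18.4 CPM without drug, 10.5 CPM after 3 h and 8.84 CPM after 6 h, with centred log2 ratios of -0.92 and -1.23. At 6 h Tfb2m lay below 10 CPM, and it passed the floor on the mean through the other libraries. Tfb1m, a methyltransferase of mitochondrial ribosomal RNA, had 12.1, 15.3 and 21.8 CPM, with 0.23 and 0.68. The list had a median of -0.14 at 6 h, with 1 gene higher and 1 lower past 1.5-fold; Tfb1m was named after its value was seen. The mitochondrial share of summed UMIs was 4.57%, 3.51% and 2.94% in the same libraries, and a relation to these genes was not tested.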
